A study of Mus musculus with 55 samples.

Results

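Hc encodes the fifth component of complement, C5, and was followed here through the livers of 55 male mice of 29 Collaborative Cross lines. It was selected by its symbol, as 1 gene of the 37620 in the gene tables (ENSMUSG00000026874) together with its 5 annotated isoforms of the 97251 in the isoform tables. The Collaborative Cross is a panel of recombinant inbred lines, each bred from the same set of inbred and wild-derived founder strains. The mice received no treatment, had free access to chow and water, were 8 to 11.9 weeks old and weighed 12.8 to 38 g. Of the lines, 8 had 1 mouse, 16 had 2 and 5 had 3, and the spread between mice of a line is the only replicate error in these data. The line labels give no genotype, so the founder origin of Hc in each line was not analysed here.

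C5 is made mainly by hepatocytes and secreted into plasma. When complement is activated, C5 is cut into C5a, a small peptide that attracts and activates leukocytes, and C5b, which gathers C6, C7, C8 and C9 into the pore that lyses target cells. Several inbred mouse strains lack C5 in plasma because of a small frameshifting deletion in an early exon of Hc, and A/J and NOD/ShiLtJ, which are among the founders of the Collaborative Cross, carry that allele.

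Hc lies on chromosome 2 at chr2:34838851-34916958 of the mm9 (NCBI37) build, on the minus strand. The coding transcript, ENSMUST00000028233, has 41 exons and 5445 bases. The other 4 isoforms are annotated as processed transcripts without a coding sequence and are 579 to 694 bases long. Of these, ENSMUST00000125549 has 5 exons within chr2:34846810-34856371 and runs past the end of exon 34 of the coding transcript into intron 34, taking in 310 of that intron's 329 bases. The gene Gm13449 overlaps Hc on the opposite strand, and its level did not exceed 0.12 FPKM in any mouse.

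The total of estimated fragments per liver was 20.5 to 34.0 M, with a median of 27.7 M, of which Hc took 3493 to 41028 fragments. At these counts the counting error of Hc is small beside the spread between mice. Livers were rich in hepatocyte markers (Alb, Apoa1, Ttr, Apob, Serpina1a and Tat summed to 18097 to 70064 FPKM), while the 5 lymphocyte markers summed to 0.19 to 10.6 FPKM. The other marker lists summed to 198 to 2756 FPKM (erythroid), 9.55 to 264 (Kupffer cell), 11.1 to 126 (stellate), 11.55 to 66.1 (endothelial) and 0.5 to 10.2 (cholangiocyte). The lowest hepatocyte sum was that of IL-2156 replicate 3, the mouse with the most Hc. Among the 47 mice with a line mate, 41 were most similar to a mate over all expressed genes. The remaining 6 included mice of IL-1052 and IL-2750, which were most similar to each other's mice. Their Hc levels were alike, at 113 to 135 FPKM.

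Hc ranged from 29.5 to 319 FPKM over the 55 mice (FPKM, fragments scaled to transcript length and to the mapped fragments of the library). The mice did not fill that range evenly. Ordered by level on the log2 scale, the widest step between neighbouring mice separated 56.7 from 79.5 FPKM, a log2 difference of 0.49, while the next widest was 0.25. There were 16 mice below this gap and 39 above it. All mice of 7 lines lay below the gap, all mice of 21 lines lay above it, and the 2 mice of IL-3438 lay on either side. Since the gap was found in the Hc values themselves, the division is a description and was not tested.

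The low lines were close together. IL-521 had the lowest mean, 31.3 ± 1.17 FPKM (SD, n = 2), from mice at 30.5 and 32.1. The mice of IL-3348 were at 37.7 and 29.5 FPKM, and the single mouse of IL-2693 was at 38.2. IL-3575 followed with 44.2 and 40.5 FPKM. In IL-785 the 3 mice were at 51.4, 36.5 and 46.5 FPKM. In IL-611 they were at 44.2, 48.0 and 44.7 FPKM. IL-2680 was the highest of the low lines, with mice at 49.3 and 56.7 FPKM. Of these 7 lines, 6 had at least 2 mice, and in each of the 6 every mouse was low.

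Above the gap most lines lay close to each other. IL-3912 was the lowest, at 81.8 ± 3.19 FPKM (SD, n = 2). A run of lines followed with means from 96.2 FPKM in IL-2689 (1 mouse) to 138 in IL-557 (1 mouse), among them IL-4457 at 100.1 ± 2.21, IL-2750 at 117 ± 3.88 (n = 3), IL-219 at 121 ± 5.43 and IL-519 at 131 ± 8.39. In this run 2 lines had mates far apart, IL-1061 at 90.2 and 155 FPKM and IL-4052 at 96.3 and 176. The top of the order was held by IL-2011 (165 ± 16.9, n = 2), IL-670 (167 ± 19.5, n = 3), IL-2146 (169 ± 25.9, n = 2), IL-72 and IL-2156. IL-72 had mice at 206 and 229 FPKM. IL-2156 had the highest mean, 261 ± 64.4 FPKM (SD, n = 3), from mice at 192, 273 and 319.

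**Figure D1:**
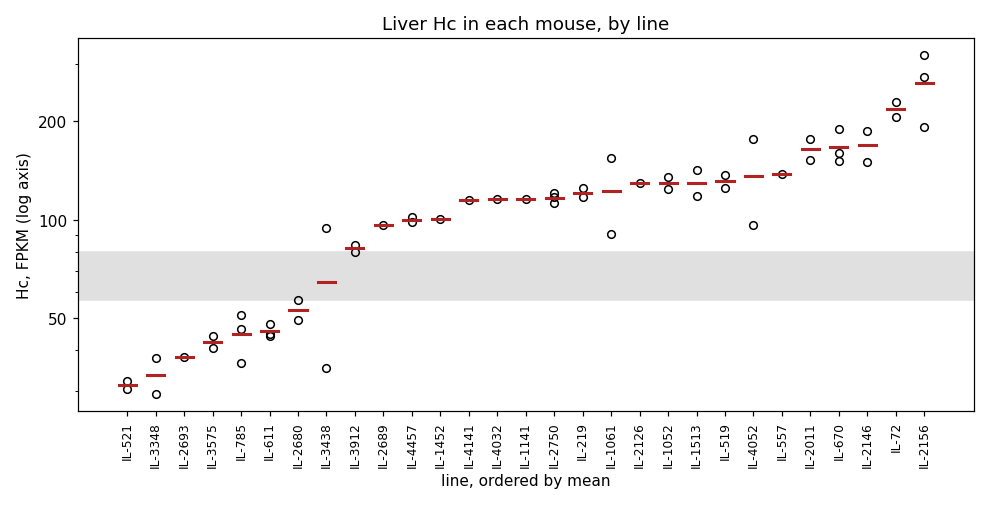
Hc level (FPKM, log axis) of each mouse (open circles) in the 29 lines, ordered by line mean (red bars), with the gap from 56.7 to 79.5 FPKM shaded. The 7 lines on the left lie wholly below the gap, 21 lines lie wholly above it, and IL-3438 has 1 mouse on each side.

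Mates were near each other beside the differences between lines. The pooled SD within lines was 0.30 on the log2 FPKM scale, or 0.24 without IL-3438. With the latter value, 1 of the 28 steps between neighbouring lines in the order exceeded 2 standard errors, that from IL-3438 to IL-3912 (log2 difference 0.50, SE 0.24). With the SD of all lines, which takes in the wide spread of IL-3438 itself, the SE was 0.30 and 0 of the 28 steps did, so the mean of IL-3438 was not separated from that of IL-3912. With IL-3438 set aside, the step across the gap from IL-2680 to IL-3912 was 0.63 (SE 0.24, or 0.30 with the SD of all lines). The lines were ordered and the gap was placed by these same Hc values. The standard errors take no account of that, nor of the number of comparisons, so these values are descriptions and not tests. Neighbours within either side of the gap lay within 2 standard errors of each other, while some lines farther apart in the order did not. The ends of the low lines, IL-521 and IL-2680, differed by 0.76 (SE 0.24), and those of the higher lines, IL-3912 and IL-2156, by 1.65 (SE 0.22). Over all pairs, 5 of 21 among the low lines and 63 of 210 among the higher lines exceeded 2 standard errors, or 2 and 50 with the SD of all lines.

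Most of the variation in Hc lay between lines. The highest line mean was 8.35 times the lowest. The intraclass correlation, the share of the variance that lies between lines, was 0.84 on rank-based normal scores of FPKM (1e-05, the smallest p that 100000 label permutations can give, one-sided permutation test). It was 0.86 without IL-3438. The value of 0.84, with all lines, was above that of 97.2% of the 5949 genes with variable expression, whose median was 0.59. In edgeR's quasi-likelihood F test among the 21 lines with at least 2 mice (47 mice), Hc differed among lines with F = 23.1 and a Benjamini-Hochberg adjusted p of 5.9e-11. Differences among lines were the rule in these livers, as 13523 of 15285 genes tested (88.5%) passed an adjusted p of 0.05, and Hc ranked 191 of them by p.

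IL-3438 was the exception to the likeness of mates. Replicate 1 was at 94.3 FPKM and replicate 2 at 35.3, a ratio of 2.67, whereas the other 20 lines with mates had ratios of 1.03 to 1.83. The 2 mice were each other's most similar mouse over all genes. Between them 88 of 11284 expressed genes (0.78%) differed by as much as Hc or more on the log2(FPKM + 1) scale, and among 85 expressed genes within 5 Mb of Hc 1 did. That gene was Lcn2, at 34.3 FPKM in replicate 1 and 135 in replicate 2, which is also among the acute-phase genes listed next. Of 10 listed acute-phase genes, whose hepatic expression rises in inflammation, 9 had higher values in the low mouse and 1, Fgb, a lower value (3163 against 3380 FPKM). They summed to 29147 FPKM in replicate 2 and 13013 in replicate 1, with Saa1, a serum amyloid A, at 8374 against 2368 and Orm2, an orosomucoid, at 272 against 16.1. Their part in the Hc difference was not tested. Over the whole panel, the same list summed to 4438 to 35640 FPKM in the 16 mice below the gap and to 3276 to 124527 in the 39 above it, and the highest sum belonged to the mouse with the most Hc, IL-2156 replicate 3.

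Of the 5 isoforms, 2 carried nearly all Hc fragments. The isoform percentage (IsoPct) is a share of the length-scaled level of Hc and not of its fragments. A short isoform therefore has a larger IsoPct than share of fragments. By IsoPct the coding transcript took 71.0 to 98.8% of Hc, with a median of 94.2%. ENSMUST00000125549 took 1.25 to 27.1%, with a median of 5.51%, and had 28.1 to 311 fragments per mouse. In IL-2680 replicate 1, which had the IsoPct of 27.1%, it had 236 of 5716 Hc fragments. ENSMUST00000151628 was above 0 in 2 mice and ENSMUST00000156049 in 25, neither with more than 6.55 fragments in any mouse. ENSMUST00000156412 had at least 10 fragments in 2 mice only. These were IL-2126 with 326 of 10615 Hc fragments (IsoPct 23.5%) and IL-1513 replicate 1 with 383 of 17729 (IsoPct 16.9%). The mate of the latter, IL-1513 replicate 2, had 0. IL-2126 was the library of lowest depth (20.5 M), while IL-1513 replicate 1 had 31.0 M, and the part of depth in these values was not tested. This isoform made up 30.3 of the 129 FPKM of Hc in IL-2126 and 23.9 of the 142 FPKM in IL-1513 replicate 1.

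Read on the division by Hc level, the share of ENSMUST00000125549 (IsoPct) was apart in the low and the other mice. It was 14.8 to 27.1% in the 16 mice below the gap and 1.25 to 11.2% in the 39 above it, and the ranges did not overlap. Total Hc, on which the gap was placed, is the denominator of this share. The separation is therefore not independent of the division and is not a separate result. On its own the share had no such division, since the step from 11.2 to 14.8% (3.57 percentage points) was narrower than that from 23.0 to 27.1% (4.12 points), which sets 1 mouse apart. IL-3438 followed its mice, with 16.3% in replicate 2 and 5.04% in replicate 1. By line the share was lowest among the low lines in IL-521 (16.5% ± 2.47, SD, n = 2) and highest in IL-2680 (24.9% ± 3.16, n = 2). Among the 21 lines above the gap IL-1513 had the highest share, 10.6% ± 0.88 (SD, n = 2).

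**Figure D2:**
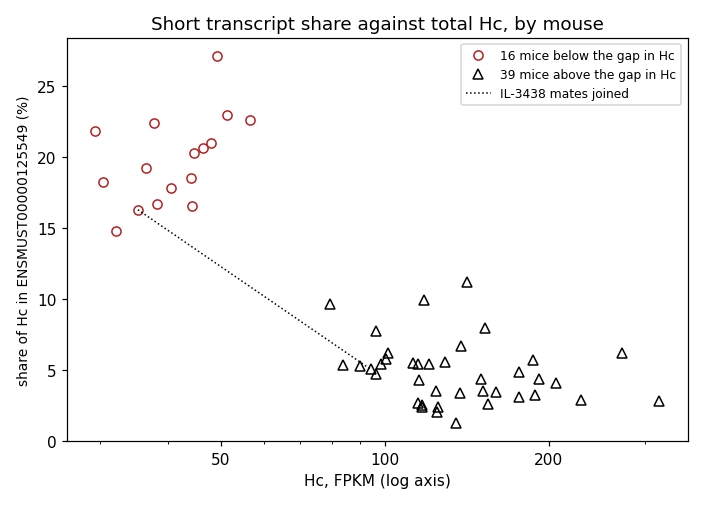
Share of Hc in ENSMUST00000125549 (IsoPct, percent) against the Hc level (FPKM, log axis), 1 point per mouse, with red circles for the 16 mice below the gap, black triangles for the 39 above it and a dotted line joining the mates of IL-3438. The circles lie at 14.8 to 27.1% and the triangles at 1.25 to 11.2%. Total Hc is the denominator of the share, so this separation is not independent of the gap.

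The level of this transcript did not divide them. It was 4.74 to 13.4 FPKM in the mice below the gap and 1.70 to 17.0 in those above it, and these ranges overlapped, while the coding transcript was at 23.0 to 43.8 FPKM below the gap and 71.8 to 310.1 above it. In the mates of IL-3438 the transcript was at 5.74 FPKM in replicate 2 and 4.75 in replicate 1, against 29.5 and 89.4 FPKM of the coding transcript. The coding transcript makes up most of total Hc, on which the gap was placed, so its own division follows from that and is not a separate result. The share is a fraction of total Hc, so it is not independent of the level of the coding transcript. The intraclass correlation of the isoform ratio, computed on the coding transcript, was 0.72 (2e-05, one-sided permutation test with 100000 permutations). It was above that of 97.4% of the 6650 isoform ratios examined, whose median was 0.25. The IsoPct of the coding transcript was 72.8 to 85.2% below the gap and 71.0 to 98.8% above it, and these ranges overlapped. The correlation therefore does not describe the separation in the share of ENSMUST00000125549.

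**Figure D3:**
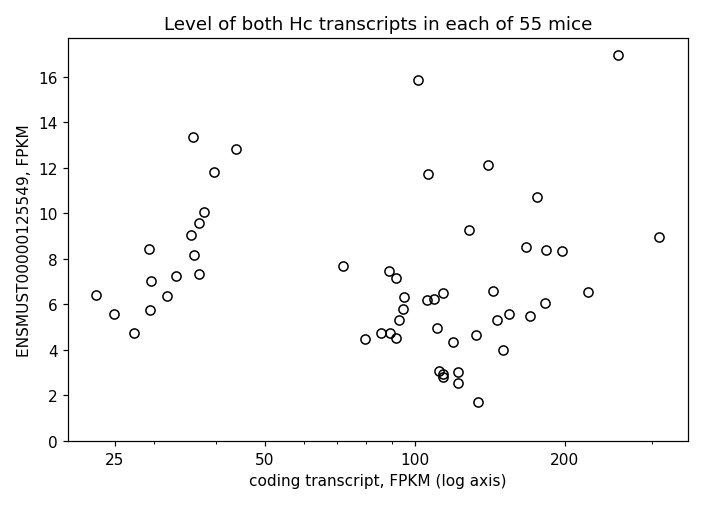
Level of ENSMUST00000125549 (FPKM) against the level of the coding transcript (FPKM, log axis), 1 point for each of the 55 mice. The coding transcript leaves a space between 43.8 and 71.8 FPKM, while ENSMUST00000125549 covers 4.74 to 13.4 FPKM to the left of it and 1.70 to 17.0 FPKM to the right. The space follows from the gap in total Hc, most of which is the coding transcript.

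Within either side of the gap, age, body weight and depth did not follow Hc in a way the test could show. The difference in Hc between the sides was not tested against them, and IL-3438 was left out. Since the line means fell on both sides of the gap, each relation was computed separately in the 21 higher and the 7 low lines, 6 relations in all. In the higher lines Spearman's rho with mean log2 FPKM was 0.13 for age, -0.13 for body weight and 0.16 for depth, and Pearson's r was 0.16, 0.033 and -0.026 (adjusted p 0.68 for each rho and 0.91 for each r, two-sided permutation test). Without the 2 lines farthest from the median of each measure, r was 0.21, -0.16 and -0.16. In the low lines the largest was that with age, with rho 0.59 and r 0.56 (adjusted p 0.68 and 0.91, permutation test), and r became -0.35 without the 2 farthest lines, so it rested on those. On the same step r in the low lines moved from 0.050 to 0.43 for body weight and from 0.24 to -0.54 for depth.

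Of the other complement genes, 46 of 47 listed were found and tested, and 45 differed among lines, a share to be read against 88.5% of all genes. Cd46, a membrane regulator listed at no more than 0.44 FPKM, did not pass (adjusted p 0.055, edgeR), but passed without IL-3438, when 46 did. By role, 11 of 11 genes that start the classical and lectin pathways passed, 7 of 7 of the convertases, 6 of 6 of the terminal pathway, 14 of 15 regulators and 7 of 7 receptors. Over the 38 with at least 2 FPKM in some mouse, Spearman's rho with Hc across the 29 line means ran from -0.33 to 0.32 with a median of 0.0016, beside a median of -0.066 for all 11284 such genes. Within the 21 higher lines the values were larger. There rho ran from -0.22 to 0.69 with a median of 0.23, beside 0.031 for all genes. Of the 38, 31 were above 0, beside 6088 of all 11279 genes. The largest were C8a (0.69), Serping1, the C1 inhibitor (0.68), C4bp, which regulates C4b (0.61), Cpn2, a subunit of the carboxypeptidase that trims C5a (0.61), and Vtn, which encodes vitronectin, an inhibitor of the pore (0.59). IL-2156, the highest line for Hc, was also the highest for C8a, Serping1, C4bp, Cpn2 and Vtn, and its mice had acute-phase sums of 45637 to 124527 FPKM, whose part in these values was not tested. Without it the median was 0.15 and C8a stood at 0.64. These correlations are descriptions, as the points share the libraries from which Hc was measured.

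The genes for the proteins that act just before C5 were not low in the same lines. C3, whose fragment forms part of the enzyme that cuts C5, had line means of 777 FPKM in IL-2750 to 2321 in IL-2156 (edgeR adjusted p 0.00045, rho with Hc -0.049, or 0.20 in the higher lines). C2, the serine protease of the classical C5 convertase, ran from 37.1 to 222 FPKM (rho 0.23 in both sets of lines). C4b, which anchors that enzyme to the surface, ran from 139 to 458 FPKM (rho 0.061, or 0.54 in the higher lines), and Cfb, the protease of the alternative pathway, from 315 to 606 (rho 0.090, or 0.48 in the higher lines). In each of these 4 genes the 7 low Hc lines lay among the others.

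Among the partners of C5b, C6 and C9 had wide ranges that did not follow the low Hc lines. C6, the first protein to join C5b, had line means of 17.8 FPKM in IL-1452 to 630 in IL-785, a ratio of 35.5 (adjusted p 9.3e-07, edgeR). The 7 low Hc lines covered 38.4 to 630 FPKM of C6, with IL-785 the highest of all. C9, which polymerises into the pore, ran from 61.5 FPKM in IL-2126 to 695 in IL-2146 (adjusted p 2.2e-06, edgeR), and from 199 to 567 in the low Hc lines. The subunits of C8 had narrower ranges, C8a 148 to 366 FPKM, C8b 112 to 460 and C8g 181 to 395. C7 was not above 0.46 FPKM in any mouse. The receptors for C5a, C5ar1 and Gpr77 (C5ar2), reached no more than 1.45 and 0.43 FPKM, so their differences among lines concern very low levels. Spearman's correlation with Hc was 0.32 for C6, 0.27 for C9 and C8a, 0.088 for C8b and 0.046 for C8g over the 29 lines. Within the 21 higher lines it was 0.42 for C6, 0.52 for C9, 0.69 for C8a, 0.21 for C8b and 0.12 for C8g.

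**Figure D4:**
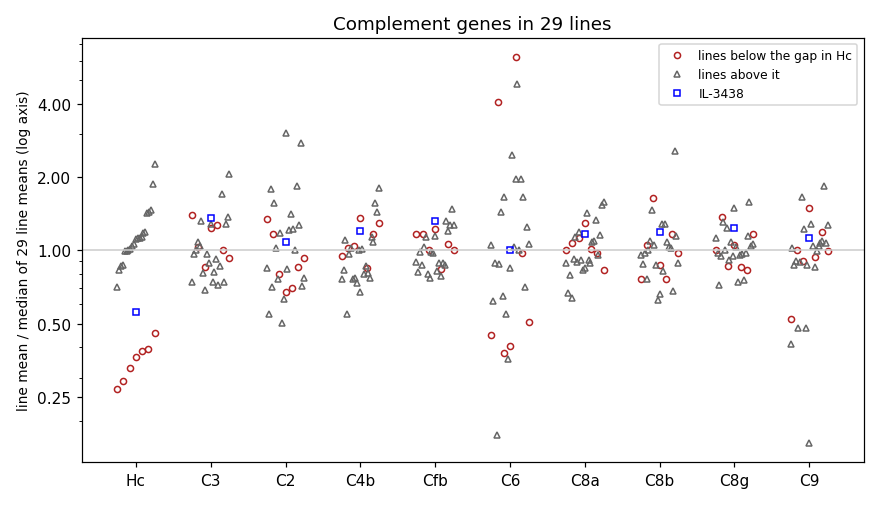
Line means of Hc and 9 other complement genes, each divided by the median of its 29 line means (log axis), with red circles for the 7 lines below the gap in Hc, grey triangles for the 21 above it and a blue square for IL-3438. The red circles are apart from the triangles for Hc and mixed with them for the other 9 genes.

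There were 41 annotated genes with a start within 1 Mb of the Hc start, of which 21 could be tested and 21 differed among lines, beside 88.5% of all genes. For the 15 with at least 2 FPKM in some mouse, rho with Hc ran from -0.43 to 0.25 over the 29 line means and from -0.57 to 0.52 within the 21 higher lines. On the side of lower coordinates the nearest 5 expressed genes were D730039F16Rik (rho 0.25), Psmd5, an assembly factor of the proteasome (-0.43), Fbxw2 (-0.089), Rabepk (0.19) and Hspa5, the chaperone BiP (-0.19). On the other side they were AI182371, 40.1 kb from the start of Hc with 128 to 292 FPKM (-0.0020), Cep110 (-0.39), the small GTPase Rab14 (-0.40), Gsn, which encodes gelsolin (-0.24), and Stom, which encodes stomatin (-0.28). Gsn had a range of 0.84 to 512 FPKM because of 1 mouse, that of IL-4032, at 512 where the next highest mouse was at 28.5. These values changed within the 21 higher lines, where Hspa5 was at -0.57, D730039F16Rik at 0.52, Rabepk at -0.26, Psmd5 at 0.019 and Cep110 at 0.26. Over the 85 expressed genes within 5 Mb, rho ran from -0.50 to 0.25 over the 29 lines and from -0.57 to 0.61 within the higher lines.

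**Figure D5:**
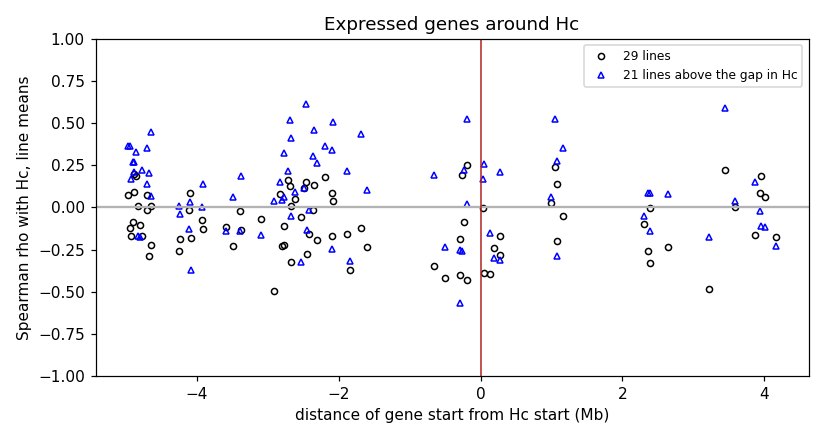
Spearman's rho with Hc for the 85 expressed genes with a start within 5 Mb of the Hc start (red line), by distance in Mb, over the 29 line means (black circles) and over the 21 lines above the gap (blue triangles). The circles lie between -0.50 and 0.25 and the triangles between -0.57 and 0.61.

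Elsewhere in the genome the largest correlations of line means with Hc were inverse. Among the 5 lowest were Vps13b (rho -0.69, line means 1.47 to 3.37 FPKM), Ikbkg, a subunit of the kinase complex that activates NF-kB (-0.67), A1cf, the cofactor of apolipoprotein B RNA editing (-0.67), and Acad11 (-0.66). The highest values in the same direction were Gins1, a component of the replicative helicase (0.61), Alg8, a glucosyltransferase of N-glycan assembly (0.60), Adat2 (0.59), Tmc5 (0.59) and Sec11c, a signal peptidase subunit (0.56). Of these, all but Sec11c were at low levels. Their line means were 1.23 to 3.12 FPKM for Gins1, 2.06 to 3.505 for Alg8, 0.62 to 2.62 for Adat2 and 0 to 4.27 for Tmc5 (median 0.195). Gins1 is on chromosome 2 but far from Hc, at chr2:150731136-150757016. Of 11284 genes, 148 had a rho of at least 0.5 in size. Within the 21 higher lines alone, Gins1 stayed at 0.63, while Vps13b was at -0.46, Ikbkg was at -0.34 and Sec11c at 0.34.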

How the data were processed

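Liver RNA of 55 mice of 29 lines was sequenced from stranded mRNA libraries. The authors mapped fragments with Bowtie 2 and quantified them with RSEM 1.2.18 against mm9 and an Ensembl annotation, and deposited, per gene and isoform, expected counts, TPM, FPKM and, for isoforms, the percent of the gene's expression (IsoPct). RSEM was run with its default parameters, which do not use strand, so reads of a gene and an antisense partner were not told apart. RSEM divides fragments shared by isoforms by a model, so isoform values are estimates.

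Mice were assigned to lines by their labels. Whether replicates within a line share a litter or a library batch is not given in the sources used here. Expected counts were rounded and tested among the 21 lines with at least 2 mice by edgeR 4.0.16 (R 4.3.3), with TMM factors, its filter on low counts and Benjamini-Hochberg adjustment at 0.05, and with DESeq2 1.42.0 as an alternative. The test was tried on simulated counts with the same dispersion for every gene, in which 200 of 14409 genes were changed 2-fold. It recovered 186 of the 200 and called 12 unchanged genes. Far fewer genes differed there than in these livers, so the error rate in these livers is not known from it. Intraclass correlations used the 55 mice, with FPKM rounded to bins of 1/200 of the maximum (at least 0.5) and turned into normal scores, and traits of at least 12 levels. The division at the widest gap is a description. Genes with a maximum of at least 2 FPKM were used for correlations. Symbols and coordinates came from GENCODE vM1 on the same build, which held 37205 of 37620 gene identifiers, and the lengths of all 5 Hc isoforms equalled those deposited.

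Named genes were Hc and its isoforms, the main complement genes, the nearest 5 expressed genes on either side, and the 5 highest and 5 lowest correlations with Hc, of which 1 is not reported here. Hc, the gene lists and the tests were chosen with earlier results of these data known. Gap, IL-3438, IL-2156, pooled-SD and label-exchange alternatives were added after the data were seen.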

Additional observations from a re-analysis of the deposited data

How the results depend on the processing

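The difference of Hc among lines passed the threshold under every alternative, with adjusted p of 4.8e-85 (DESeq2) to 2.5e-10 (without IL-1052 and IL-2750), and 2.4e-13 to 3.7e-10 when single mice were left out, for which the dispersion trend and gene set of all mice were kept. The intraclass correlation was 0.82 to 0.89 over the other settings and 0.83 to 0.87 without single mice, and that of the isoform ratio 0.71 to 0.83 and 0.69 to 0.76. The ratio of highest to lowest line mean was 10.5 in TMM-scaled CPM against 8.35 in FPKM, and 7.43 to 9.46 without single mice. Called genes numbered 10070 to 13630 over all genes, 35 to 46 in the complement list and 16 to 21 near Hc, where the lowest counts came from the filter of at least 10 fragments in every mouse, which tests fewer genes. Without single mice they numbered 13130 to 13600, 44 to 46 and 20 to 21. The rho of Hc with depth changed sign in the higher lines with only lines of at least 2 mice (-0.033) and with mice as points (-0.055), and in the low lines with only lines of at least 2 mice (-0.029). Of the 10 genes most like Hc, 7 to 9 remained under TPM, without IL-1052 and IL-2750 or with a mean of at least 1 FPKM, and 1 within the 21 higher lines, and the cause was not tested.

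No paired analysis was possible because the labels number no replicates, and the numbers used here follow the order of deposition and only name mice. The labels name no batch, so whether batch coincides with line is not known, and a part of batch in the differences among lines could not be examined. Lines with 1 mouse, among them IL-2693, have no replicate check, and the order of neighbouring lines is limited by 1 to 3 mice per line. Whether the low lines carry the C5-deficient allele was not tested.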
